A study of Mus musculus with 2 samples.

Results

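The genes described here are the replication-dependent histone genes of the mouse, measured by total RNA sequencing of embryonic midbrain. They were taken by symbol: every protein-coding gene of GENCODE M21 whose symbol starts with Hist1h, Hist2h, Hist3h or Hist4h, of which there are 67. The deposited tables hold 64 of them under their gene ID, of 43346 Ensembl genes. These 64 genes are the members, 6 of histone H1, 18 of H2A, 15 of H2B, 12 of H3 and 13 of H4. Hist1h2bh, Hist1h2bm and Hist2h2bb had no entry under their M21 gene ID. The single group was midbrain of healthy, unmodified B6NCrl embryos at embryonic day 16.5, with males and females pooled. Its 2 libraries were 2 biological replicates, and each came from a pool of embryos. The pool of replicate 2 held 37 embryos, the number for replicate 1 is not given, and both carry the same donor identifier. Expected counts, the estimated reads per gene, summed to 31830355 in replicate 1 and to 36576263 in replicate 2. Values with ± are the mean and SD of the replicates (n = 2). With 1 group there is no condition to compare and no test.

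A nucleosome wraps DNA around an octamer of the core histones H2A, H2B, H3 and H4, and H1 binds the DNA between nucleosomes. The replication-dependent genes supply these proteins while DNA is copied in S phase. Most of their mRNAs are not spliced and carry no poly(A) tail. Each ends just after a stem-loop that the protein Slbp binds, and the U7 small nuclear ribonucleoprotein directs the cut there. Some of these genes also give longer mRNAs with a poly(A) tail, in particular in cells that have left the cycle. H3f3a, H3f3b and H2afz, which are replication-independent genes, have introns and tailed mRNAs and are used throughout the life of a neuron.

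The stem-loop is the sequence these genes share, so its forms are shown first. A script looked in the annotated transcripts of M21, on the sense strand, for GGNNNTNTNNANNNCC in which the 6 bases on the left pair with the 6 on the right. It was present in 44 of the 67 genes. Among models that run at least 100 bases past the stop codon it stood within that distance in 25 of 31 of these genes, or 80.6%, and in 3 of 19907 other protein-coding genes, or 0.0151%. Capitals mark the paired stem and the lower-case bases between them the loop. The 24-base sites, from GENCODE M21 transcripts on GRCm38, are given for the 4 highest genes and for 1 gene of each further form, with Hist1h1c added so that each histone type is shown.
Hist3h2ba: ccaaaGGCTCTtttcAGAGCCacc
Hist1h2ap: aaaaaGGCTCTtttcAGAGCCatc
Hist3h2a: ccaaaGGCTCTtttcAGAGCCacc
Hist1h1c: caaaaGGCTCTtttcAGAGCCacc
Hist1h3e: aaaacGGCTCTtttaAGAGCCacc
Hist2h2ac: aaaaaGGCTCTttttAGAGCCacc
Hist1h4d: ccaaaGGCCCTtttcAGGGCCact
Hist2h4: ctaacGGCCCTttttAGGGCCaac
Hist1h4j: ctaaaGGTCCTtttcAGGACCacc
The H4 genes differed from the others in the stem. All 11 H4 genes with a stem-loop had GGCCCT or GGTCCT as its left arm, while the 33 genes of the other types had GGCTCT. The form of Hist3h2ba and Hist1h2ap was the most frequent, at 26 genes, none of them an H4 gene. In Hist3h2ba it lay at chr11:58949349-58949364 on the plus strand, in the 3′ UTR, 28 bases after the stop codon. In Hist1h2ap it lay at chr13:21833029-21833044 on the minus strand, 38 bases after the stop codon.

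Few members were at a level that could be measured well, and 3 genes held most of the RNA. The members summed to 1031.99 TPM, a share of transcripts corrected for their length, in replicate 1 and to 839.45 in replicate 2, 936 ± 136 in all. The 3 highest, Hist3h2ba, Hist1h2ap and Hist3h2a, made up 73.3% ± 1.04 of that sum, and the 5 highest 84.9% ± 0.698. A gene was called detected at 1 TPM or more in both libraries. That held for 24 of 64 members, or 37.5%, against 62.1% of the 21474 protein-coding genes. The median member stood at 1.14 and 0.675 TPM, and the median protein-coding gene at 5.25 and 5.21. Another 7 members had no count in either library, against 18.3% of protein-coding genes, and 15 had 3 counts or fewer in both. Where reads are not shared with other genes, a count of 0 allows up to 3 counts. Where they are shared, as for Hist1h2ao, it can allow more. In both libraries 8 members reached 10 TPM. The share of all protein-coding genes was not counted at the cuts of 3 counts and 10 TPM.

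**Figure D1:**
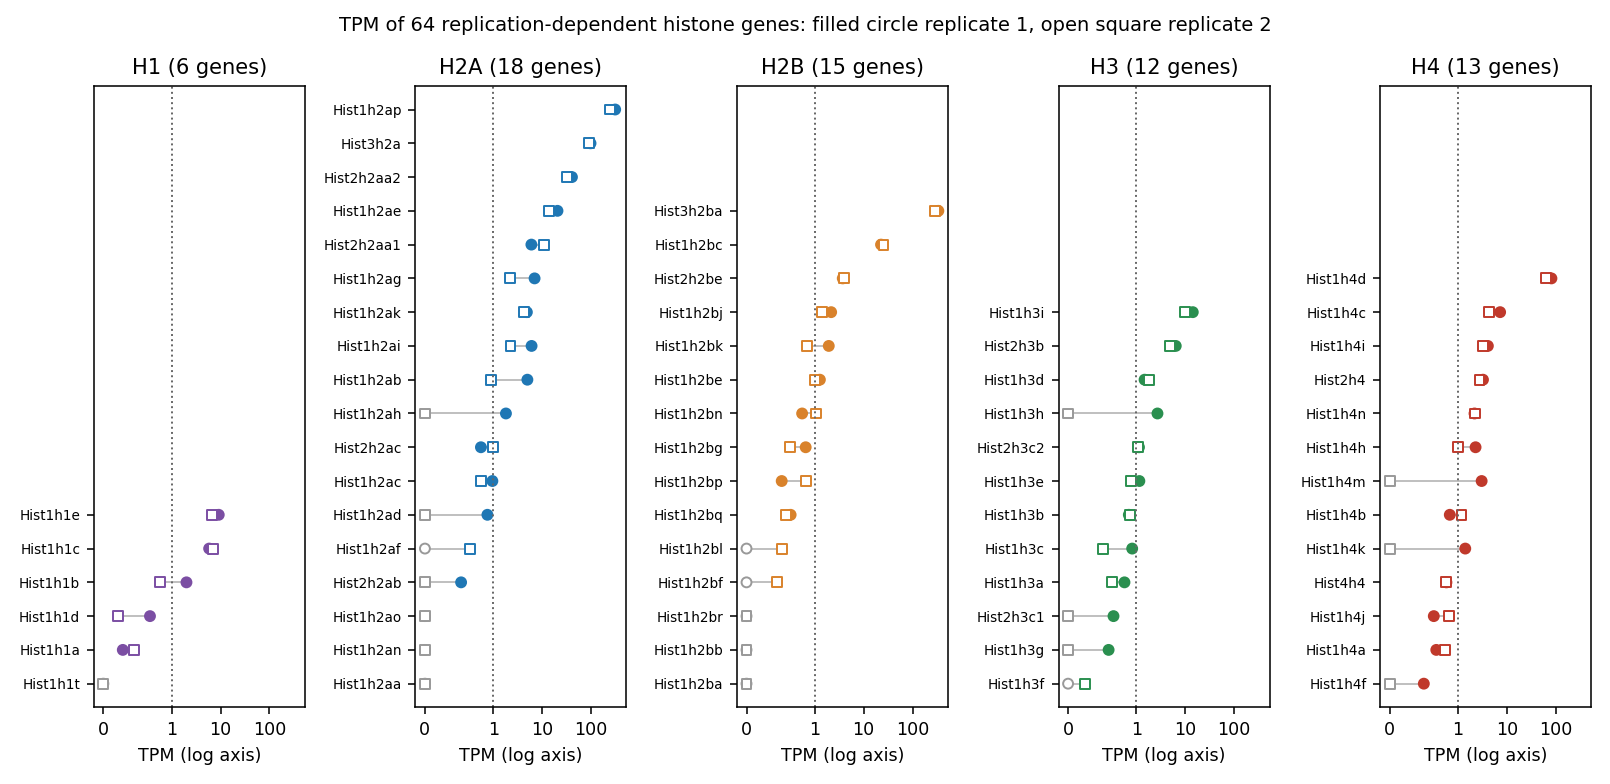
TPM of the 64 members by histone type on a log axis, with 0 drawn at the left edge. Filled circles are replicate 1, open squares replicate 2, grey symbols values of 0, and the dotted line is 1 TPM. Hist3h2ba and Hist1h2ap lie furthest to the right in both libraries, and most members lie near or below 1 TPM.

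By histone type, H2A held 48.4% ± 0.879 of the members' TPM and H2B 37.2% ± 1.80. H4 held 10.0% ± 0.587, H3 2.63% ± 0.359 and H1 1.72% ± 0.0260. The order of these 5 types was the same in both libraries. The summed levels were 506.07 and 401.22 TPM for H2A, 371.10 and 323.22 for H2B, 107.50 and 80.47 for H4, 29.80 and 19.98 for H3 and 17.52 and 14.56 for H1. The sums of H2A and H2B, which enter the nucleosome as a dimer, thus stood well above those of H3 and H4, which enter as a tetramer. This contrast rests on few genes. Hist3h2ba made 91.0% and 89.1% of H2B and Hist1h2ap 61.9% and 60.7% of H2A. Hist1h4d made 76.1% and 79.4% of H4 and Hist1h3i 47.9% and 50.5% of H3.

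H2B was nearly all 1 gene. Hist3h2ba (ENSMUSG00000056895.4, chr11:58948920-58949533, 1 exon) was measured at 337.62 TPM in replicate 1 and 288.03 in replicate 2, from 3217 and 3198 expected counts. The deposited credibility bounds, the range given with each TPM, were 316 to 339 and 271 to 290. The bounds of the 2 libraries did not overlap, and replicate 1 was the higher. It was the highest member in both libraries and made 91.0% and 89.1% of H2B. The second H2B gene, Hist1h2bc, was at 22.66 and 25.49 TPM, from 267.07 and 350.10 expected counts, with bounds of 18.9 to 24.4 and 21.9 to 27.2. It was higher in replicate 2, unlike Hist3h2ba, and the bounds of the 2 libraries overlapped. Hist2h2be followed at 3.73 and 3.96 TPM. Hist1h2bj, at 2.16 and 1.41, was the only other H2B gene detected in both libraries. The proteins of Hist1h2bc, Hist1h2be and Hist1h2bg are identical and their genes summed to 24.58 and 26.79 TPM. Hist3h2ba encodes an H2B protein that no other member encodes.

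H2A was led by Hist1h2ap (ENSMUSG00000094777.2, chr13:21833026-21833507, 1 exon), at 313.25 and 243.60 TPM from 2219.85 and 2011.43 expected counts. Its bounds were 286 to 315 and 222 to 246, so the 2 libraries did not overlap. Hist3h2a, the second, was at 97.99 and 89.82 TPM from 3711.45 and 3964.03 expected counts, with bounds of 92.0 to 98.1 and 84.8 to 90.3. Its counts exceeded those of Hist1h2ap, while its TPM was lower. TPM divides by length, and the annotated transcript of Hist3h2a is longer, 2146 bases against 482. The order of these 2 genes by TPM thus rests on the annotated lengths, and where the reads lay along them was not measured. Hist2h2aa2 was at 40.83 and 31.83 TPM, Hist1h2ae at 20.65 and 13.74, and Hist2h2aa1 at 6.04 and 10.77. Hist1h2ak, at 4.88 and 4.22, was even between the libraries, whereas Hist1h2ag at 7.02 and 2.20 and Hist1h2ai at 6.09 and 2.26 were not. Of 18 H2A members 8 were detected. The 9 genes that encode the most frequent H2A protein, Hist1h2ap among them, summed to 353.73 and 263.25 TPM.

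All 13 H4 genes encode the same protein of 103 residues, and their RNA came mainly from 1 of them. Hist1h4d was at 81.80 and 63.90 TPM, from 444.99 and 405.00 expected counts, with bounds of 72.2 to 86.9 and 56.3 to 68.5, or 76.1% and 79.4% of H4. No 100-base stretch of it occurs in another annotated gene, so its reads could be told from those of the other H4 genes. Hist1h4c was next at 7.29 and 4.40 TPM, from 39.90 and 28.08 expected counts, with bounds of 4.57 to 9.50 and 2.44 to 6.05. Hist1h4i at 4.09 and 3.22, Hist2h4 at 3.25 and 2.76, Hist1h4n at 2.18 and 2.24 and Hist1h4h at 2.29 and 1.01 were the other H4 genes detected. Hist4h4, the lone member of the fourth cluster, was at 0.58 and 0.57 TPM on a transcript of 2879 bases, from 30 and 34 expected counts, with bounds of 0.388 to 0.795 and 0.386 to 0.756.

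The 12 H3 genes were low throughout. Hist1h3i led them at 14.26 and 10.09 TPM, from 82.33 and 67.84 expected counts, with bounds of 9.78 to 17.3 and 6.52 to 12.0. Hist2h3b was at 6.39 and 4.94 TPM, from 45.98 and 41.44 expected counts, with bounds of 3.88 to 8.37 and 2.96 to 6.66. For both genes the bounds of the libraries overlapped. Hist1h3d at 1.47 and 1.78 and Hist2h3c2 at 1.13 and 1.06 were the other 2 detected. The genes encode 2 proteins that differ by 1 residue. The protein of Hist1h3b and 7 other genes, known as H3.2, had 12.00 and 9.57 TPM in all, and that of Hist1h3a and 3 others, known as H3.1, had 17.80 and 10.41. Their order was the same in both libraries, but in replicate 2 the sums were close.

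Of the linker histones, Hist1h1e was at 9.20 and 6.60 TPM, from 110.51 and 92.29 expected counts, with bounds of 7.36 to 10.7 and 5.19 to 7.91. Hist1h1c was at 5.85 and 7.13 TPM, from 158.19 and 224.56 expected counts, with bounds of 4.83 to 6.62 and 6.08 to 7.91. Hist1h1e was higher in replicate 1 and Hist1h1c in replicate 2, so which of the 2 was the higher gene changed with the library. Hist1h1b was at 2.01 and 0.58 TPM, Hist1h1d at 0.36 and 0.08 and Hist1h1a at 0.10 and 0.17.

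The 7 members without a count were Hist1h1t, Hist1h2aa, Hist1h2ba, Hist1h2an, Hist1h2ao, Hist1h2bb and Hist1h2br. The first 3 are known as histone genes of the testis, and they were the whole list of testis histone genes, 0 of 3 detected. For Hist1h1t the upper credibility bounds were 0.250 and 0.216 TPM. For Hist1h2ao they were 6.07 and 7.39 TPM, although its TPM was 0, and this gene has a near-identical copy.

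Copies limit what can be said of single genes. Each annotated transcript was cut into all its words of 100 bases, the read length that the deposited effective lengths imply, and a word was called shared if another annotated gene holds it. Of 383 words of Hist1h2ap, 353 also occur in Hist1h2ao, and only the first 30 are its own. Hist1h2ao has 28 words of its own, at its other end, and 0 counts. The assignment of 2219.85 and 2011.43 counts to Hist1h2ap and 0 to Hist1h2ao thus rests on the annotated ends of the transcripts. Levels given for Hist1h2ap can therefore include RNA of Hist1h2ao. All words of Hist2h2aa2 occur in Hist2h2aa1. Taken singly, Hist2h2aa2 was lower and Hist2h2aa1 higher in replicate 2, but their summed counts gave a log2 ratio between the libraries of -0.08. For Hist3h2a, 610 of 2047 words lie in the first exon of Trim17, which starts at the same base and was at 1.13 and 1.80 TPM. Hist3h2ba had 4.85% of its words shared and overlaps no other gene. In all, 25 members had at least 50% of their words shared and held 38.8% ± 2.11 of the members' TPM. Members that overlap another annotated gene held 50.1% ± 0.949, and for H2A the other gene was mostly a predicted microRNA on the opposite strand. Whether the counting used the strand is not given here.

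The genes lie in 4 clusters, and a cluster of 2 genes held nearly as much RNA as the cluster of 52. Cluster 1 on chromosome 13 has 52 of the members and summed to 533.31 and 404.72 TPM, 49.9% ± 2.45 of the total. Cluster 3 on chromosome 11 has 2 members, Hist3h2ba and Hist3h2a, and summed to 435.61 and 377.85 TPM, 43.6% ± 1.98. Cluster 2 on chromosome 3, with 9 members, had 62.49 and 56.31 TPM, and cluster 4 on chromosome 6 had only Hist4h4. In cluster 1, 16 of 52 members were detected, in cluster 2, 6 of 9, and in cluster 3 both.

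The promoters of the cluster 3 genes are shown because this pair held such a share. RefSeq promoter windows, 250 bases before the annotated start on GRCm38.p6, were matched for 62 of the 67 genes. They were searched on both strands for CCAAT, for TATAAA and for the octamer ATTTGCAT, and all matches within the 150 bases before the start are in capitals.
Hist3h2ba, chr11:58948761-58948910, plus strand: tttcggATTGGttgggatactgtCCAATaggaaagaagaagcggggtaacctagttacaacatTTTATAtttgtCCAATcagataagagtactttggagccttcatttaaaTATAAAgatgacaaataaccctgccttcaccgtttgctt
Hist3h2a, chr11:58954535-58954684, plus strand: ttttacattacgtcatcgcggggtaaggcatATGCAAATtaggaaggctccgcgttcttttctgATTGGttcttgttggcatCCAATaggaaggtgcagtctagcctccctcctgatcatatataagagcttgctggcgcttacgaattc
In Hist3h2ba the nearest TATAAA began 39 bases before the start and the nearest CCAAT 76 bases before it. Hist3h2a had CCAAT at 68 bases and the octamer, read on the other strand as ATGCAAAT, at 119 bases, and its window held no TATAAA. Of the 3 motifs, CCAAT was the most frequent, in 51 of 62 windows, or 82.3%, against 33.8% of the 32851 windows of the table. It stood in all windows of H1, H2A and H2B genes but in 3 of 12 of H4 genes. TATAAA stood in 46.8% against 12.4%. The octamer stood in 13 of 62 windows, against 1.60% of the table, and all 13 belonged to H2A or H2B genes. Where an H2A and an H2B gene start close together on opposite strands, their windows overlap, and 1 site can count for both. That was so for the octamers of Hist1h2ae and Hist1h2bg, of Hist1h2ah and Hist1h2bk and of Hist1h2aa and Hist1h2ba. Matches of CCAAT and TATAAA can be counted for both genes in the same way. These are matches of letters, and no binding was measured.

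Many H2A and H2B genes face away from each other and start close together, so that a pair shares 1 stretch of upstream DNA. There were 12 such pairs among the genes measured, with starts 176 to 306 bases apart. In 4 of the 12 pairs both genes were under 1 TPM in both libraries, Hist1h2aa and Hist1h2ba at 0 among them, so that levels within a pair could not be compared there. Hist1h2ah at 1.82 and 0 TPM and Hist1h2bk at 1.93 and 0.69 were close in replicate 1. The 3 pairs with the highest genes were unequal, though the counts of Hist1h2ap can include those of Hist1h2ao, a gene of another pair. Hist1h2ap, at 313.25 and 243.60 TPM, starts 236 bases from Hist1h2br, which had no count, though 1 transcript that M21 gives to Hist1h2br is listed under another gene ID at 1.10 and 1.14 TPM. Hist1h2bc, at 22.66 and 25.49 TPM, starts 251 bases from Hist1h2ac, at 0.96 and 0.55. Hist1h2ae, at 20.65 and 13.74 TPM, starts 176 bases from Hist1h2bg, at 0.65 and 0.31. The H2A gene was the higher in both libraries in 5 pairs and the H2B gene in 5. The latter 5 include the pairs of Hist1h2bp, at 0.21 and 0.66 TPM, and Hist1h2bq, at 0.32 and 0.26. Both pairs are among the 4 under 1 TPM, so the even tally is not a result about the pairs.

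**Figure D2:**
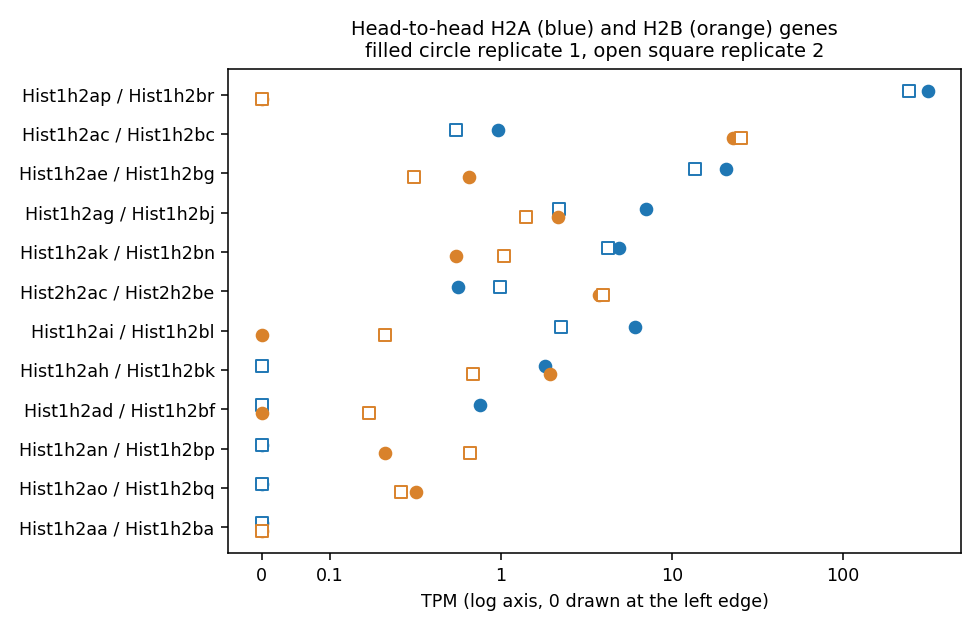
TPM on a log axis for the 12 head-to-head pairs of an H2A gene (blue) and an H2B gene (orange), with 0 drawn at the left edge. Filled circles are replicate 1 and open squares replicate 2. In the pairs of Hist1h2ap, Hist1h2bc and Hist1h2ae the partner lies more than 10-fold below.

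The ends of the annotated transcripts were set against the stem-loop, since a processed mRNA ends a few bases after it. Only the 51 transcripts with the same length in the deposited tables and in M21 were used. Hist1h2ap ends 3 bases after its stem-loop. Hist3h2ba runs 169 bases past it and Hist3h2a 1643 bases. Transcripts that run more than 100 bases past, or are spliced, held 52.8% ± 2.33 of the TPM of the 51. There were 14 of them, 4 of these spliced, and the spliced ones among the 51 reached at most 0.21 TPM. Hist1h2bc, at 22.66 and 25.49 TPM, has 2 exons in M21 but was not among the 51. Its transcript has 736 bases in the deposited tables and 1156 in M21. Those that end within 100 bases of the stem-loop held 42.4% ± 1.63, and those whose model has no stem-loop 4.81% ± 0.702. The first share was 13.8% ± 1.17 when 200 bases were asked for, since Hist3h2ba then left the class. A transcript counts whole here, and the tables do not show where along it the reads lay. Of the 64 members 19 have a shorter model in the deposited tables than in M21. Hist1h4d is one, with 393 bases against 1138, and the bases beyond its deposited end were not counted for it.

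**Figure D3:**
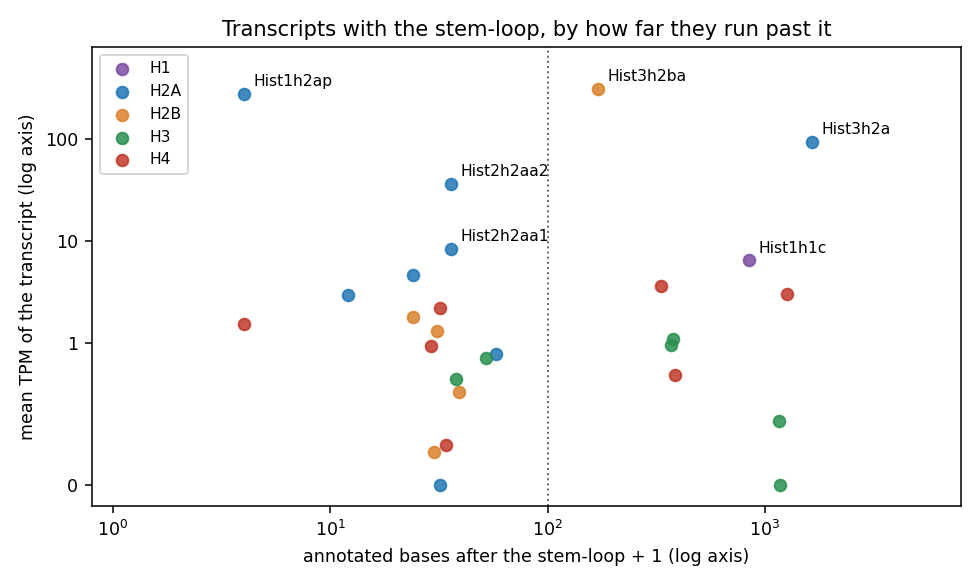
Mean TPM of each transcript with a stem-loop, on a log axis with 0 at the lower edge, against the number of annotated bases after the stem-loop plus 1, on a log axis. Points are transcripts coloured by histone type, and the dotted line is 100 bases. Hist1h2ap stands at 3 bases past, Hist3h2ba at 169 and Hist3h2a at 1643.

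Other RNAs that normally carry no poly(A) tail were present in the same libraries. Rn7sk, which holds an elongation factor inactive, was at 241.72 and 251.75 TPM, and Rpph1, the RNA of RNase P, at 88.93 and 75.48. Rmrp, the RNA of RNase MRP, was at 1.76 and 1.89 TPM. The labels link the manual of a SMARTer Ultra Low RNA kit, a kind that primes cDNA with oligo(dT). The part of the kit in the levels of the histone genes was not tested.

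Replication-independent genes held far more of the summed H3 TPM than the members. Most mRNAs of the members carry no poly(A) tail, unlike those of H3f3a, H3f3b and H2afz. The part of the kit in the gaps below was not tested. H3f3a was at 2659.29 and 2372.05 TPM and H3f3b at 1815.87 and 1694.46. Both encode H3.3, which is deposited outside replication and differs from the H3.1 and H3.2 of the members by 5 and 4 residues. Their sum exceeded that of the 12 H3 members by 7.45 ± 0.310 on the log2 scale, 175-fold. The members held 0.661% and 0.489% of the TPM of these H3 genes together. For H2A the gap was smaller and depended on the genes summed. H2afz and H2afv, the genes of H2A.Z, summed to 810.44 and 715.05 TPM, 0.76 ± 0.109 above the H2A members on the log2 scale, or 1.69-fold. With H2afx, H2afy, H2afy2 and H2afj added, a choice made after seeing the data, all 6 H2A genes of the list summed to 1488.71 and 1330.87 TPM, 1.64 ± 0.123 above the members, or 3.12-fold. H1f0, a linker histone of resting cells, and H1fx summed to 148.73 and 136.25 TPM, 3.16 ± 0.0994 above the H1 members, or 8.91-fold. In each of these 3 comparisons the independent genes were the higher in both libraries. All 11 replication-independent histone genes were detected, against 62.1% of protein-coding genes. They ran from H1fx at 12.13 and 11.26 TPM and Cenpa, the H3 of the centromere, at 22.65 and 16.71 up to H3f3a.

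**Figure D4:**
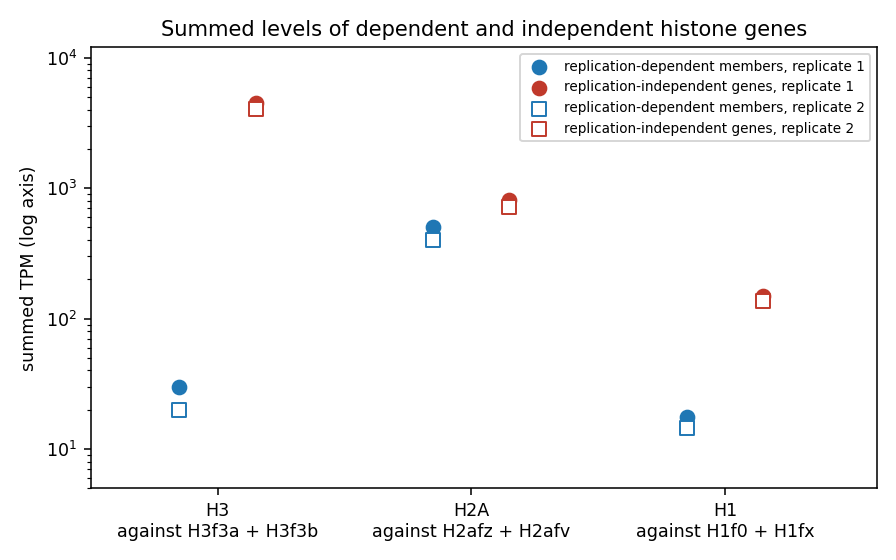
Summed TPM on a log axis of the replication-dependent members (blue) and of 2 replication-independent genes (red) for H3, H2A and H1. The part of the library kit in the distances between them was not tested. Filled circles are replicate 1 and open squares replicate 2. The distance is widest for H3, at 175-fold, and narrowest for H2A, at 1.69-fold for the 2 genes drawn and 3.12-fold for all 6 independent H2A genes of the list.

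The genes whose products make histone mRNA, carry histones or copy DNA were all detected. At the same threshold 62.1% of protein-coding genes were detected, and these lists were chosen with earlier results of these data known. Of 15 transcription and processing factors 15 were detected. Slbp, the stem-loop binding protein, was at 107.15 and 101.74 TPM. Lsm10 and Lsm11, proteins of the U7 particle, were at 46.73 and 51.91 and at 20.72 and 21.48. Npat, the coactivator that binds the histone clusters in S phase, was at 9.44 and 9.37, and Casp8ap2, needed for histone gene transcription, at 35.63 and 27.03. Zfp473, the zinc finger protein of the U7 complex, was lowest at 1.00 and 1.49. All 19 histone chaperones were detected. Nap1l4, a carrier of H2A and H2B, was at 264.09 and 250.03 TPM, and Nasp, a carrier of H3 and H1, at 82.70 and 72.59. Chaf1a, the large subunit of the factor that places H3 and H4 behind the fork, was lowest at 4.51 and 3.09. All 22 S-phase genes were detected too, from Cdc6 at 2.03 and 1.99 TPM to Pcna, the sliding clamp of the fork, at 79.98 and 73.50. In TPM, Pcna alone thus exceeded all the H3 and H1 members summed, and the part of the kit in this was not tested.

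Most of the members that could be compared were lower in replicate 2. The ratio of replicate 2 over replicate 1 was taken on expected counts, scaled by TMM factors with 0.5 added, and genes under a mean of 10 expected counts were left out. Of 30 members compared, 24 were lower in replicate 2, against 46.6% of 15000 protein-coding genes. Their median log2 ratio was -0.32, against 0.01 over all protein-coding genes. A total of 5 members were 2-fold or more lower, against 0.707% of protein-coding genes, and 0 were 2-fold higher, against 1.21%, or 1.91% in both directions together. Low counts spread these ratios. Among 20 members with a mean expected count under 100, 17 were lower, against 41.6% of protein-coding genes in that range, and 5 differed 2-fold, against 9.48%. The interval of the ratio that counting error allows, at 95%, lay wholly below 0 for 11 members and wholly above 0 for 2. The same was not counted over all protein-coding genes, so these 2 numbers have no background. Over all genes the libraries differed by more than counting error, with a chi-square of 17.2 per gene. The intervals also leave out the division of shared reads. Hist2h2aa2 lay below 0 and Hist2h2aa1 above, though their summed counts gave -0.08.

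The members lower by 2-fold were Hist1h2ab at -2.35, Hist1h1b at -1.70, Hist1h2ag at -1.61, Hist1h2ai at -1.36 and Hist1h4h at -1.10 on the log2 scale. None of them had more than 50.15 expected counts in a library, and Hist1h2ab had 34.59 and 7.28. Hist1h2ab, Hist1h2ag and Hist1h2ai share 52.4%, 76.2% and 88.4% of their words with other genes. The 19 compared members with under 50% of words shared had 15 lower and 2 at 2-fold. Among the members of high count the differences were smaller: -0.33 for Hist1h2ap, -0.32 for Hist1h4d, -0.19 for Hist3h2ba and -0.09 for Hist3h2a. Hist2h2aa1 at 0.87, Hist1h1c at 0.32, Hist1h3d at 0.30, Hist1h2bc at 0.21, Hist2h2be at 0.12 and Hist1h4n at 0.08 were higher in replicate 2. By summed counts, H3 was lowest in replicate 2 at -0.52, then H4 at -0.33, H2A at -0.19, H2B at -0.15 and H1 at -0.04.

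**Figure D5:**
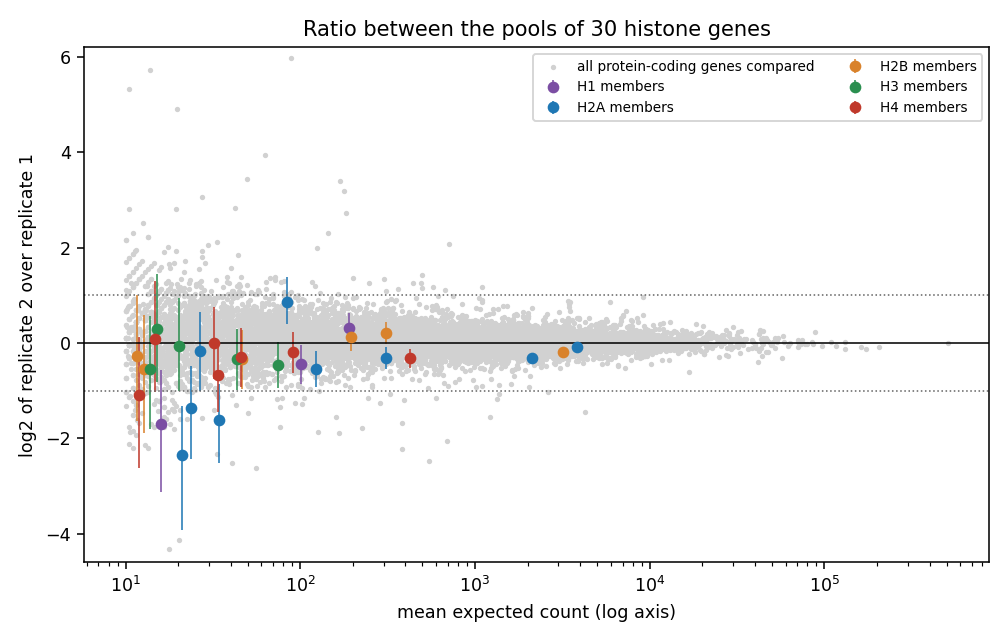
Log2 ratio of replicate 2 over replicate 1 against the mean expected count on a log axis. Grey points are the 15000 protein-coding genes, coloured points the 30 members with their 95% counting intervals, and dotted lines mark 2-fold. Of the members 24 lie below 0, and the 5 beyond 2-fold have low counts.

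Genes of dividing cells were lower in the same pool. All 5 markers of dividing cells were lower in replicate 2, with a median log2 ratio of -0.36 and a summed level of 184.55 TPM in replicate 1 and 150.39 in replicate 2. None of them was at 0, and their part in the ratio of the histone genes was not tested. Mki67, a protein of cycling cells, was at 3.65 and 2.27 TPM, Top2a at 24.48 and 16.94, Cdk1 at 41.45 and 26.40, Rrm2 at 34.99 and 31.28 and Pcna at 79.98 and 73.50. Of 22 S-phase genes 17 were lower, with a median of -0.15 and a range from -0.65 to 0.50, and of 19 chaperones 17, with a median of -0.10. Of the 11 replication-independent histone genes 9 were lower, with a median of -0.11, and of the 15 transcription and processing factors 8, with a median of -0.02. None of the genes in these 4 lists differed 2-fold. Mki67, Top2a, Pcna and Rrm2 stand on both the list of dividing cells and that of S phase. Ccne1, cyclin E, was higher in replicate 2 at 8.13 and 11.02 TPM. In tissue, fewer cells of a type and less RNA per cell cannot be told apart.

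The tissue matched its label on the markers looked at. All 5 genes of the midbrain territory were detected, among them Otx2 at 56.32 and 64.47 TPM, and 0 of 3 hindbrain Hox genes, at 0.20 TPM or less. Markers of young neurons, 4 of 4, and of red cells, 6 of 6, were detected, with medians of 1310.97 and 1414.02 TPM and of 1952.10 and 1702.24 TPM.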

How the data were processed

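The authors deposited, per gene and per transcript, expected counts, TPM and FPKM, posterior mean TPM, credibility bounds of TPM whose level is not stated, and for transcripts the percent of the TPM of their gene. Reads were aligned to mm10 and quantified on GENCODE M4 with spike-ins, per the deposited readme. No aligner or quantifier is named in the sources used here, and the column names are those that RSEM writes. Expected counts divide reads that match several genes. RNA over 200 bases was kept, and 10 ng entered each library, per the labels.

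Symbols, transcripts and stem-loops came from GENCODE M21 on GRCm38, joined by gene ID without version, and promoters from RefSeq. Effective length was 99 bases under length in all 97402 transcripts of 200 bases or more, which gives the word length of 100 bases. Scaling used TMM factors of edgeR 4.0.16 and, as an alternative, size factors of DESeq2 1.42.0, both on rounded expected counts. The scripts used R 4.3.3, matplotlib 3.10.9, scipy 1.17.1, pandas 2.3.3, numpy 2.4.6 and Python 3.11.15. The ratio script was tested on simulated data. The libraries differed by more than counting error, with a chi-square of 17.2 per gene over 14458 genes.

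The members, lists, thresholds and alternatives were chosen with earlier results of these data known. Members with a mean of 1 TPM or more, the 2 highest of each type, those at 0 in both libraries and any gene of the lists could be named. Lower members, among them Hist1h1a, Hist1h1d, Hist1h2ac, Hist1h2bg and Hist4h4, were named for their pair, type or cluster. Intervals cover counting error only.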

Additional observations from a re-analysis of the deposited data

Results flagged for a closer look

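Pseudogenes that match the symbol pattern are no members, and 2 of 3 had more than 3 expected counts in a library. A count of 0 allows at most 3 where reads are not shared between genes. Hist3h2bb-ps, a processed pseudogene of cluster 3 that starts on the opposite strand upstream of Hist3h2a, had 21.8 expected counts in replicate 1 and 13.96 in replicate 2. Hist1h2aj, an unprocessed pseudogene, had none in replicate 1 and 28.77 in replicate 2.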

How the results depend on the processing

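Of 36 alternatives that kept both libraries, 27 left the value within the spread of the replicates, or the count within 1.5 times, and 9 did not. None of these 36 reversed a direction. With 2 libraries, leaving out 1 cannot move a mean by more than the SD, so it says nothing about stability. Members that overlap no other gene summed to 466 TPM. At 5 TPM, 11 members were detected, and the share of all protein-coding genes was not counted at that cut. On expected counts, not corrected for length, the independent genes exceeded the members by 9.05 (H3) and 1.08 (H2A) on the log2 scale. With all 6 independent H2A genes, also chosen after seeing the data, the H2A value was 1.64. With a minimum mean expected count of 50, 0 members differed 2-fold between the libraries, and with no minimum 22 of 57 did. Among members with under 50% of words shared, an alternative chosen after seeing the data, 2 did. These counts have no share of all protein-coding genes beside them, and 13 of the 57 members were at 0 in 1 library. Transcripts more than 200 bases past the stem-loop held 13.8%. The median ratio ranged from -0.33 to -0.20. The value of -0.20 was that at the minimum of 50, where 9 of 13 members were lower. No share of protein-coding genes was counted at that minimum. No paired analysis was possible because there is only 1 group. Counts under 10 and shared words limit most single members.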
